A study of Homo sapiens with 6 samples.

Results

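The genes described here are the aminoacyl-tRNA synthetase genes of OVCAR3 cells, measured by RNA-seq with and without a knockdown of NUF2. They were found by text: every gene whose deposited description contains the words "-tRNA synthetase" was taken, which gave 38 of the 19973 genes listed. They were split by name into the 16 whose symbol ends in 2, which mostly act in mitochondria, and the other 22, which mostly act in the cytosol. GARS1 and KARS1, in the second set, encode enzymes for both places. The second set also holds FARSA and FARSB, the subunits of one enzyme, and AARSD1, which is related to the editing domain of alanyl-tRNA synthetase and does not charge tRNA itself. WARS2, for mitochondrial tryptophanyl-tRNA, has a description written without the hyphen and so falls outside the rule. It stood at -0.14 on the log2 scale (standard error 0.11, adjusted p = 0.26). Here and below, adjusted p-values are Benjamini-Hochberg values from the quasi-likelihood test of edgeR.

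OVCAR3 is an established human ovarian cancer cell line. Cells of this line carried either a control hairpin (shNC, genotype given as WT) or a hairpin against NUF2 (shNUF2, genotype given as NUF2 knockdown), and stable lines were selected with puromycin in both groups. NUF2 is a subunit of the kinetochore complex that holds chromosomes to the mitotic spindle. Each group had 3 libraries. A single hairpin against NUF2 was used, and whether the stable lines were pools or clones is not given in the sources used here. In bulk RNA, fewer cells of one kind and less RNA per cell cannot be told apart.

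Aminoacyl-tRNA synthetases join each amino acid to its own tRNA, and the ribosome depends on these charged tRNAs to read the genetic code. Most amino acids have separate nuclear genes for the cytosolic and the mitochondrial enzyme, and the enzymes fall into class I and class II by the fold of their catalytic domain. When charged tRNA runs short, the kinase GCN2 (encoded by EIF2AK4) phosphorylates the initiation factor eIF2. Translation of the transcription factor ATF4 then goes up, and many cytosolic synthetase genes are known ATF4 targets.

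The libraries held 13057534 to 16995452 counts. NUF2 itself was counted 903, 1096 and 1092 times with shNC and 281, 290 and 384 times with shNUF2, and so fell by 1.51 on the log2 scale (standard error 0.08, adjusted p = 2.17e-15). Libraries of one group correlated at 0.992 to 0.993 across genes in log2 CPM (counts scaled to the library size), and libraries of different groups at 0.939 to 0.948. The 10 epithelial and ovarian carcinoma markers summed to 1532 to 1645 CPM with shNC and 1626 to 1766 CPM with shNUF2. Of the 8 that were tested, 4 rose (KRT8 by 1.04, EPCAM by 0.69, PAX8 by 0.64 and KRT18 by 0.55 on the log2 scale) and 3 fell (MUC16 and MSLN by 0.75 and KRT7 by 0.22). KRT7, MSLN and KRT8 gave most reads, whereas WT1 (0 to 7 counts per library) and KRT19 (1 to 8 counts) were almost absent and CDH1 (9 to 33 counts) was low. The 9 markers of blood, endothelial and stromal cells summed to 86.7 to 93.4 and 68.9 to 76.5 CPM. Most of it came from COL1A1, which fell by 0.39 on the log2 scale, while DCN rose by 1.22 (3.66 to 8.48 CPM, adjusted p = 7.00e-06). The leukocyte marker PTPRC had 0, 1 and 0 counts with shNC and 6, 11 and 6 with shNUF2. The part of these marker changes in the results that follow was not tested.

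The synthetase genes for the cytosol fell by nearly a factor of 2 as a set, and those for mitochondria fell much less. The 22 genes whose name does not end in 2 took up 0.619%, 0.659% and 0.641% of all counts in the shNC libraries and 0.318%, 0.335% and 0.331% in the shNUF2 libraries. On the CPM scale their sum went from 6318 ± 162 (SD, n = 3) to 3322 ± 60.8 (n = 3), which is 52.6% of the shNC value. The 16 genes ending in 2 took up 0.0920%, 0.0925% and 0.0903% of counts with shNC and 0.0766%, 0.0801% and 0.0778% with shNUF2. The sum over those of them that were tested went from 904 ± 11.7 to 792 ± 10.9 CPM, or 87.6% of the shNC value. For both sets, the highest shNUF2 library was below the lowest shNC library. AARS1, TARS1 and EPRS1 together made up 47.6% of the loss of summed CPM in the larger set.

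Of the 38 genes, 37 had enough reads to be tested in a fit over 12874 genes. VARS2, for mitochondrial valyl-tRNA, did not, with 9, 9 and 15 counts in the shNC libraries and 11, 8 and 9 in the shNUF2 libraries. Lower levels with shNUF2, at an adjusted p under 0.05, were found for 23 of the 37, where 33.8% of all genes tested were called lower. Only 3 of the 37 were called higher, where 33.9% of all genes were. A decrease beyond 1 on the log2 scale was seen in 9 members, against 4.16% of all genes tested, and an increase of that size in 0 of the 37 members, against 9.41%. The median log2 fold change of the 37 was -0.27, while that of all genes tested was -0.01. In 25 of the 37 every shNUF2 library was below every shNC library, compared with 35.4% of all genes tested.

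**Figure D1:**
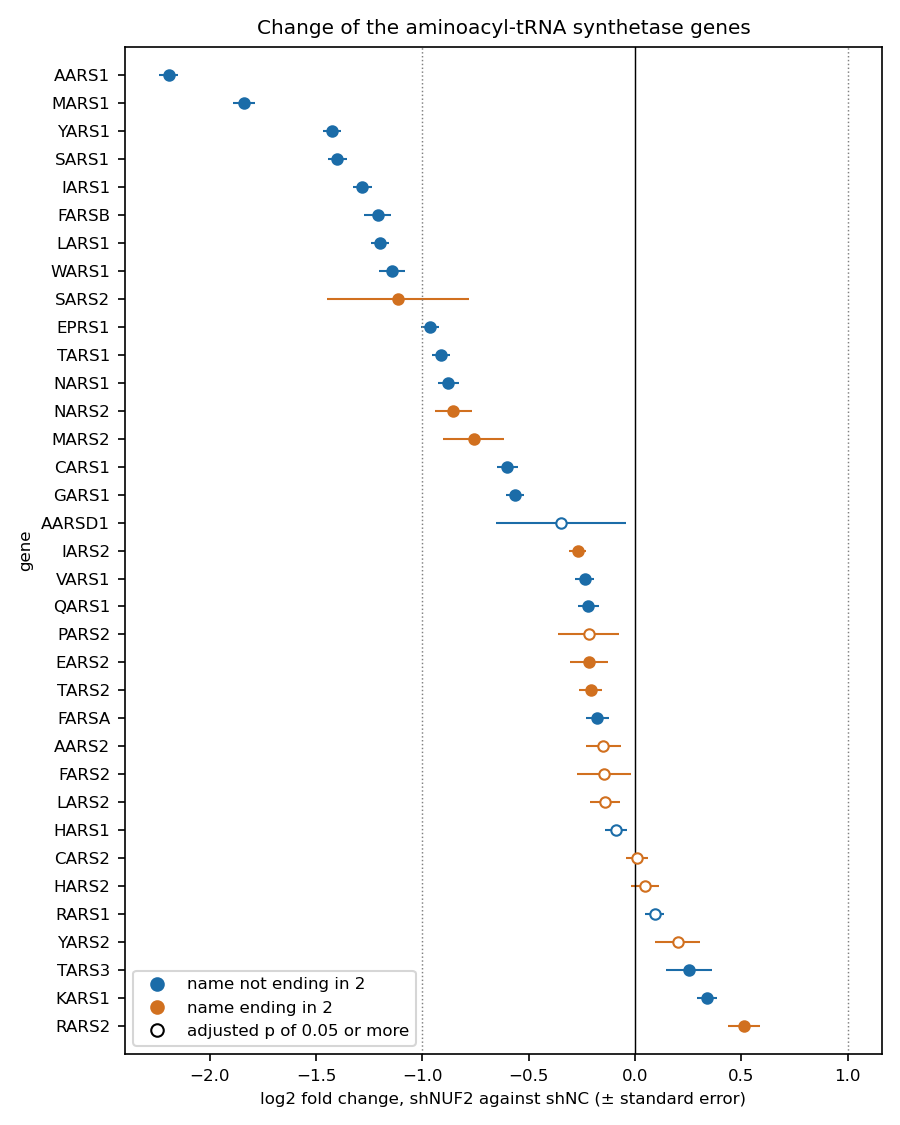
Log2 fold change of 35 tested synthetase genes, shNUF2 against shNC, with standard errors. Blue points are genes whose name does not end in 2 and orange points genes ending in 2, and open points have an adjusted p of 0.05 or more. AARS1 stood at -2.19, the lowest, and RARS2 at 0.51, the highest.

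The sets by name differed in their counts, and this difference was not tested. Of the 22 genes not ending in 2, 16 fell, 2 rose and 4 passed in neither direction, with a median log2 fold change of -0.74. Of the 15 tested genes ending in 2, 7 fell, 1 rose and 7 passed in neither direction, with a median of -0.21. For comparison, 33.8% of all genes tested fell and 33.9% rose, and whether either set departs from these shares was not tested. Of the 9 decreases beyond 1, 8 were in the first set. The median of the genes ending in 2 was close to that of 76 tested genes for proteins of the mitochondrial ribosome, at -0.22, of which 38 fell and 9 rose.

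AARS1, for alanyl-tRNA, is a class II enzyme and showed the deepest fall. The gene (ENSG00000090861) lies on the minus strand of chromosome 16 from 70251983 to 70289707 in the deposited table, whose build is GRCh38. It was counted 10724, 12420 and 13268 times with shNC and 2236, 2292 and 2432 times with shNUF2. The groups were far apart, and the levels of 768 ± 11.9 and 168 ± 7.54 CPM (SD, n = 3) differed 4.57-fold. This was -2.19 on the log2 scale (standard error 0.04, adjusted p = 7.42e-24).

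MARS1, for methionyl-tRNA in the cytosol, supplies both the initiator and the elongator methionine tRNA. It lies on chromosome 12 from 57475445 to 57517569 (ENSG00000166986, plus strand). Its counts were 4542, 5334 and 5539 with shNC and 1123, 1174 and 1487 with shNUF2. The highest shNUF2 library stayed well under the lowest shNC library. It fell by 1.84 on the log2 scale (standard error 0.05, adjusted p = 8.64e-21).

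YARS1, for tyrosyl-tRNA, was counted 4955, 5599 and 6149 times with shNC and 1744, 1778 and 1916 times with shNUF2. It lies on the minus strand of chromosome 1 from 32775237 to 32818153 (ENSG00000134684). The groups did not overlap, and the change was -1.42 on the log2 scale (standard error 0.04, adjusted p = 5.76e-20).

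The other 5 cytosolic genes that fell beyond 1 were alike in being tightly grouped by library. SARS1, for seryl-tRNA, was at -1.40 on the log2 scale (standard error 0.04, adjusted p = 5.46e-20), from 404 ± 8.67 to 153 ± 4.57 CPM. IARS1, for isoleucyl-tRNA, was at -1.28 (standard error 0.05, adjusted p = 8.59e-19). LARS1, whose enzyme charges leucine and also takes part in sensing leucine for mTORC1, was at -1.20 (standard error 0.04, adjusted p = 1.12e-18). Its 3 shNUF2 libraries lay between 155 and 156 CPM and its shNC libraries between 350 and 368 CPM. WARS1, for tryptophanyl-tRNA, was at -1.14 (standard error 0.06, adjusted p = 4.04e-15), and its enzyme is also known to be induced by interferon. FARSB is described with its partner subunit further on.

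The remaining cytosolic decreases were smaller and equally clear of overlap. TARS1, for threonyl-tRNA and the most highly expressed member, was counted 14075, 17224 and 17851 times with shNC and 6999, 7252 and 8616 times with shNUF2, a log2 fold change of -0.91. EPRS1, which joins the glutamyl and prolyl enzymes in one chain, was at -0.96 and NARS1, for asparaginyl-tRNA, at -0.88. CARS1 (cysteinyl) at -0.60 and GARS1 (glycyl, in both compartments) at -0.56 were 1.51 and 1.48 times lower. VARS1 (valyl) at -0.24, QARS1 (glutaminyl) at -0.22 and FARSA at -0.18 lay below 0 by a small margin, with adjusted p from 6.48e-05 to 0.0056. Over all 16 cytosolic genes that fell, the highest adjusted p was 0.0056.

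**Figure D2:**
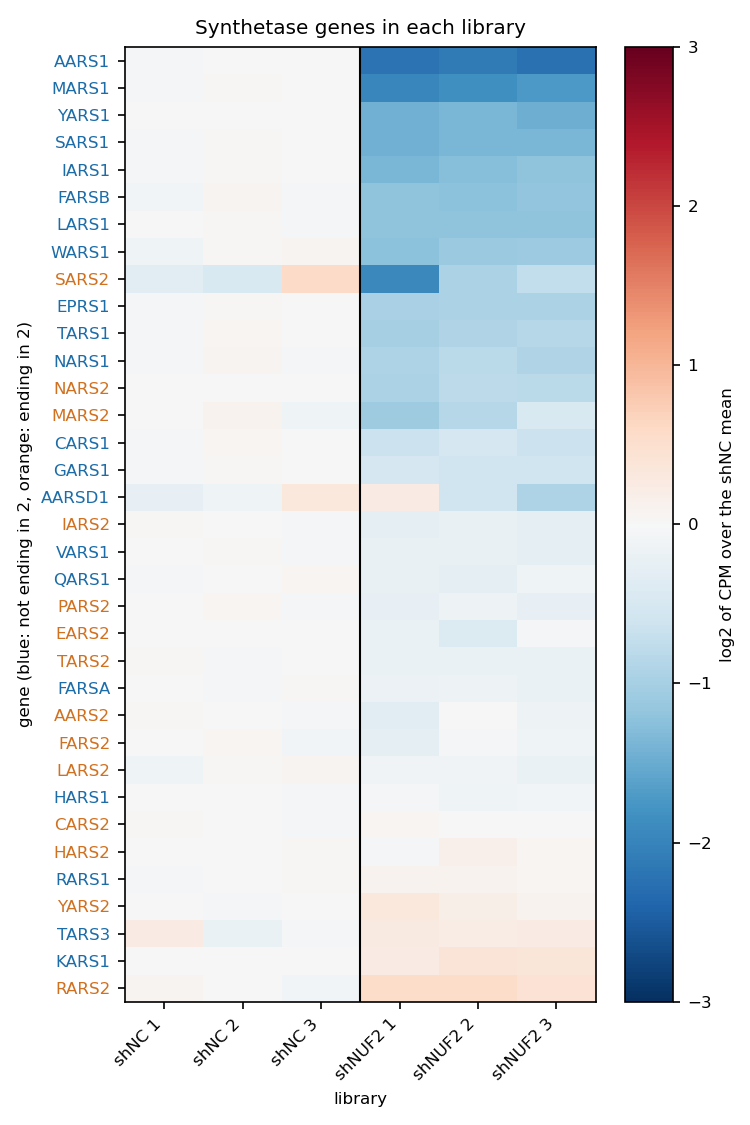
Each of the 35 rows is a tested synthetase gene and each column a library, and the colour gives log2 of the library's CPM over the shNC mean of that gene, on a scale from -3 (blue) to 3 (red). Gene names are blue where they do not end in 2 and orange where they do. The 3 shNUF2 columns are alike for the upper genes, while SARS2 and AARSD1, at the lowest counts, vary between libraries of one group.

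KARS1 and TARS3 rose among the genes not ending in 2. KARS1, for lysyl-tRNA in both compartments, was counted 2412, 2714 and 2887 times with shNC and 2696, 2892 and 3284 times with shNUF2 (chromosome 16, minus strand, 75627474 to 75648643, ENSG00000065427). In CPM, the shNC libraries stood at 170, 170 and 168 and the shNUF2 libraries at 200, 223 and 218, so the groups were apart. KARS1 rose by 0.34 on the log2 scale (standard error 0.05, adjusted p = 4.46e-07). TARS3, a second threonyl-tRNA synthetase, was at 0.25 (standard error 0.11, adjusted p = 0.0399). Its groups overlapped, with 22.4, 16.4 and 18.1 CPM against 22.9, 22.0 and 22.7 CPM, and the call was lost in 10 of the 15 alternative settings tried.

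HARS1 and RARS1, for histidyl- and arginyl-tRNA, lay near 0. HARS1 was at -0.09 on the log2 scale (standard error 0.05, adjusted p = 0.13) and RARS1 at 0.09 (standard error 0.04, adjusted p = 0.066). The groups of both were still apart by a small margin. HARS1 had 88.0 to 90.7 CPM with shNC and 82.3 to 86.5 with shNUF2, and RARS1 had 175 to 186 and 190 to 196. The call was gained in 1 alternative setting for HARS1 and in 2 for RARS1. AARSD1 had 32, 39 and 57 counts with shNC and 43, 23 and 21 with shNUF2, and at -0.35 on the log2 scale (standard error 0.31, adjusted p = 0.32) no difference was detectable at this depth.

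The cytosolic genes that fell most were mainly those known as ATF4 targets. This list of 12 (AARS1, CARS1, EPRS1, GARS1, IARS1, LARS1, MARS1, NARS1, SARS1, TARS1, WARS1 and YARS1) was written from general knowledge with earlier results of these data in view, so it is no independent support. All 12 fell, from -0.56 to -2.19 with a median of -1.17, and 7 of them beyond 1. In all 12 the groups did not overlap. Of the other 10 genes not ending in 2, 4 fell (FARSA, FARSB, QARS1 and VARS1), 2 rose and 4 passed in neither direction, with a median of -0.13. The share that fell among these 10 was near that over all genes tested (33.8%). FARSB was the only one of these 10 that fell beyond 1.

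The promoters of these genes were searched for TGATGNAA, a core of the element that ATF4 binds together with C/EBP factors, on both strands (TTNCATCA on the other strand). RefSeq promoters of GRCh38.p14, running from 250 bases before to 50 bases after a start of the gene, matched 30 of the 38 members by name. Of these members, 8 had more than 1 such window, and a match in any window was counted. The motif was found in 7 of the 10 known ATF4 targets with a promoter, in 0 of the 7 other genes not ending in 2 and in 1 of the 13 genes ending in 2. Among all genes with a promoter, 4.46% held it, and of the genes tested here 2.92%. The known ATF4 targets had more windows per gene than the other genes not ending in 2. By window, the motif was in 7 of 15, 0 of 7 and 1 of 16 for these 3 sets, and in 2.12% for genes tested here. The cyclic AMP response element TGACGTCA was found in 0 of the 30 members and in 2.25% of all genes. Such a match says only that the letters are present.

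The 30 bases around each match are shown because the matches lay mostly in known ATF4 targets, although of the members not ending in 2 that fell beyond 1 and had a promoter, AARS1, MARS1 and IARS1 held one and SARS1, WARS1 and FARSB did not, with the match in capitals and each sequence read 5′ to 3′ on the gene's strand. They lie at chr16:70289675-70289704 (AARS1, minus), chr11:3057407-3057436 (CARS1, minus), chr7:30594834-30594863 (GARS1, plus), chr9:92293692-92293721 (IARS1, minus), chr12:57488053-57488082 (MARS1, plus), chr18:57621804-57621833 (NARS1, minus), chr5:33440956-33440985 (TARS1, plus) and chr12:32756076-32756105 (YARS2, minus).
AARS1: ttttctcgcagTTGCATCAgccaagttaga
CARS1: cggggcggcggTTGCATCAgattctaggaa
GARS1: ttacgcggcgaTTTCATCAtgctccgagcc
IARS1: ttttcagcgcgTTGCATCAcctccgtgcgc
MARS1: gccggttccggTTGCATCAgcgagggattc
NARS1: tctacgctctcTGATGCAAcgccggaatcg
TARS1: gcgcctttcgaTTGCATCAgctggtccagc
YARS2: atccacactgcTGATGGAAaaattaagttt

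In 6 of these 8 promoters the match was close to a RefSeq start of the gene, its first base standing at -33 in GARS1, -13 in IARS1, -4 in MARS1, -2 in CARS1, 3 in TARS1 and 15 in NARS1. In AARS1 it began at -187 and in YARS2 at -197. YARS2, for mitochondrial tyrosyl-tRNA, was the only one of the 8 genes that did not fall, at a log2 fold change of 0.20 (adjusted p = 0.094). Its 3 shNUF2 libraries (19.2, 17.5 and 16.8 CPM) lay above its shNC libraries (15.5, 15.3 and 15.8 CPM). Among known targets without the motif in this window, SARS1 and WARS1 still fell beyond 1.

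Several synthetases sit together in the cytosol in the multisynthetase complex, which is held by the scaffold proteins AIMP1, AIMP2 and EEF1E1. Of the 8 genes for its enzymes, 5 fell (MARS1, IARS1, LARS1, EPRS1 and QARS1), 1 rose (KARS1) and 2 passed in neither direction, with a median log2 fold change of -0.59, where 33.8% of all genes tested fell and 33.9% rose. The 4 that are known ATF4 targets (MARS1, IARS1, LARS1 and EPRS1) had a median of -1.24, and the other 4 a median of 0.03. That list was written with earlier results of these data in view, so the gap between these medians is no independent support. The members of one complex thus moved unequally. Of the 14 genes not ending in 2 whose products are outside the complex, 11 fell and 1 rose, with a median of -0.74. Of the scaffold genes, AIMP2 fell by 0.85 on the log2 scale (25.0 to 13.9 CPM), AIMP1 by 0.17, and EEF1E1 was at -0.02 (adjusted p = 0.92).

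Phenylalanyl-tRNA synthetase of the cytosol is built from equal numbers of an alpha chain (FARSA), which holds the catalytic site, and a beta chain (FARSB). FARSB was counted 1185, 1493 and 1484 times with shNC and 508, 483 and 583 times with shNUF2, a change of -1.21 on the log2 scale (standard error 0.06, adjusted p = 2.17e-15). FARSA was counted 1087, 1195 and 1360 times and 919, 897 and 1001 times, a change of -0.18 on the log2 scale (standard error 0.05, adjusted p = 0.0056). The mRNAs of the partners thus changed by unequal amounts. The ratio of FARSB to FARSA in FPKM, which is reads per length and library size, was 0.392, 0.450 and 0.393 with shNC and 0.199, 0.194 and 0.210 with shNUF2. These groups did not overlap, and the two-sided exact permutation test gave p = 0.10, the smallest that 3 against 3 libraries allow. The deposited length of FARSB is 2.01 times its exon bases in GENCODE release 29, which scales the ratio in every library alike.

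**Figure D3:**
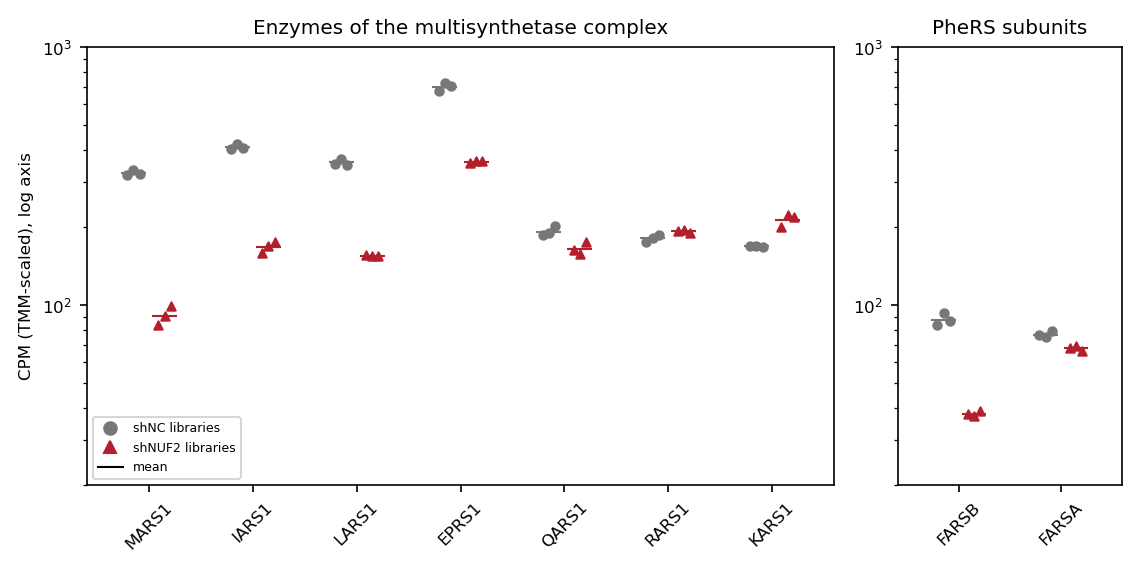
CPM on a log axis for 7 enzymes of the multisynthetase complex (left) and the phenylalanyl-tRNA synthetase (PheRS) subunits (right), with circles for shNC libraries, triangles for shNUF2 libraries and bars for means of 3. MARS1, IARS1, LARS1, EPRS1 and FARSB show wide gaps between the groups, and KARS1 is higher with shNUF2.

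By class, 8 of the 9 class I genes not ending in 2 fell, with a median of -1.14, and 7 of the 11 class II genes fell and 2 rose, with a median of -0.56. These counts leave out EPRS1, which holds an enzyme of each class, and AARSD1. Class was not independent of the other groupings, since class I holds 5 of the 8 enzymes of the complex and 6 of the 12 known ATF4 targets. Among the tested genes ending in 2, 3 of the 7 of class I fell and 1 rose (median -0.14), and 4 of the 8 of class II fell (median -0.21). Over all genes tested, 33.8% fell and 33.9% rose.

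Among the genes ending in 2, the decreases were led by SARS2, NARS2 and MARS2. SARS2, for mitochondrial seryl-tRNA, had only 35, 36 and 79 counts with shNC and 11, 21 and 28 with shNUF2 (chromosome 19, minus strand, 38915266 to 38930763, ENSG00000104835). The change was -1.12 on the log2 scale (standard error 0.34, adjusted p = 0.0048), and the library shNC 3 gave the highest count. Without it the value was -0.71 and the call was lost (adjusted p = 0.092). In GENCODE release 29, 46.2% of the SARS2 exon bases are shared with another gene on the same strand (AC011455.2), so its counts are uncertain.

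NARS2, for mitochondrial asparaginyl-tRNA, gave the firmest decrease of this set. It was counted 485, 537 and 585 times with shNC and 235, 255 and 289 times with shNUF2 (chromosome 11, minus strand, 78435968 to 78574874, ENSG00000137513). Its levels of 33.9 ± 0.27 and 18.8 ± 1.16 CPM were clearly apart, a change of -0.85 on the log2 scale (standard error 0.09, adjusted p = 2.47e-09). MARS2, for mitochondrial methionyl-tRNA, was counted 205, 244 and 223 times and 92, 102 and 156 times (chromosome 2, plus strand, 197705369 to 197708395, ENSG00000247626). It fell by 0.76 on the log2 scale (standard error 0.14, adjusted p = 4.66e-05), and the library shNUF2 3 stood nearer to shNC than the others.

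The smaller decreases included IARS2 (isoleucyl) at -0.27, EARS2 (glutamyl) at -0.22 and TARS2 (threonyl) at -0.21. IARS2 was by far the most expressed of the genes ending in 2, and its decrease from 407 ± 11.1 to 338 ± 8.07 CPM made up 61.7% of the net loss of summed CPM in this set. The call for EARS2 (adjusted p = 0.033) was lost in 6 of the 15 alternative settings. PARS2, AARS2, FARS2 and LARS2, for prolyl-, alanyl-, phenylalanyl- and leucyl-tRNA, had log2 fold changes between -0.22 and -0.14 that did not pass, with adjusted p of 0.18, 0.11, 0.32 and 0.081. LARS2 (standard error 0.07), CARS2 at 0.01 (standard error 0.05, adjusted p = 0.87) and HARS2 at 0.05 (standard error 0.07, adjusted p = 0.55) were the nearest to 0. The groups of all 3 overlapped.

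RARS2, for mitochondrial arginyl-tRNA, was the only gene ending in 2 that rose. Its counts were 466, 499 and 503 with shNC and 611, 592 and 631 with shNUF2 (chromosome 6, minus strand, 87513938 to 87589987, ENSG00000146282). The groups did not overlap, at 31.1 ± 1.77 and 44.3 ± 2.01 CPM, and the rise of 0.51 on the log2 scale (standard error 0.08, adjusted p = 1.25e-06) was the largest increase of all 37. RARS2 and its cytosolic counterpart RARS1 both had values above 0, which was not so for any other pair described.

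In most of the pairs followed, the mRNA of the cytosolic enzyme lost ground to that of the mitochondrial one. The log2 ratio of their FPKM was followed in 17 pairs, of which 11 had every shNUF2 library below every shNC library, 1 had every one above and 5 overlapped. For single genes, 35.4% of all tested had every shNUF2 library below every shNC library. The share for ratios of other gene pairs was not computed. The median change of the ratio was -0.70 on the log2 scale. With 3 libraries a group, the smallest exact permutation p was 0.10, which is 0.142 after Benjamini-Hochberg adjustment over the 17 pairs. AARS1 stood at 10.6 times AARS2 with shNC and 2.58 times with shNUF2, a change of -2.04. YARS1 went from 4.92 to 1.60 times YARS2, a change of -1.63. The pairs of leucine (-1.07), phenylalanine by FARSB (-1.06), methionine (-1.06) and isoleucine (-1.01) followed.

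The pairs that differed from this pattern did so in different ways. For asparagine NARS1 and NARS2 fell by alike amounts, and their ratio changed by -0.02, with 5.39 and 5.31 times as much NARS1. For arginine the ratio fell by 0.42 while RARS1 itself did not fall. TARS3 over TARS2 moved the other way, by 0.47. The ratios of serine, valine and histidine and of FARSA over FARS2 overlapped between groups, and those of serine and valine rest on few SARS2 and VARS2 reads.

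**Figure D4:**
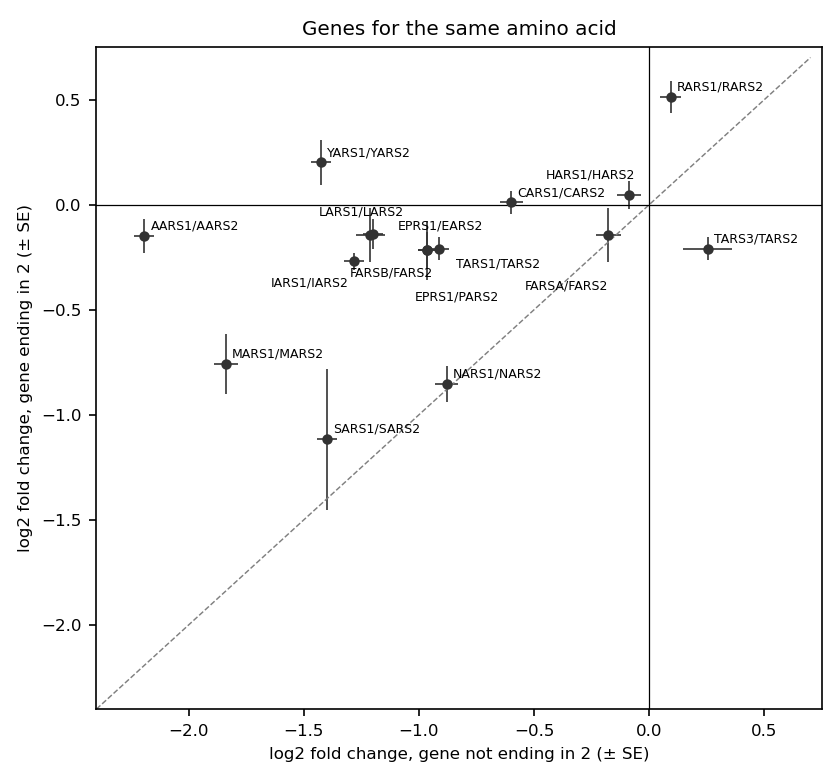
Log2 fold change of the gene not ending in 2 (horizontal) against that of the gene ending in 2 for the same amino acid (vertical), for the pairs described in which both were tested, with standard errors, and a dashed line where both are equal. Points above the line are pairs in which the gene not ending in 2 had the lower log2 fold change, with AARS1/AARS2 (-2.19 and -0.15) and YARS1/YARS2 (-1.42 and 0.20) farthest from it. NARS1/NARS2 lies on the line, and TARS3/TARS2 lies below it.

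Levels were compared between genes only in FPKM, the deposited value per length. With shNC the order was led by TARS1 at 246 FPKM, followed by EPRS1 (133), SARS1 (106), IARS2 (99.6) and AARS1 (75.8). At the other end were SARS2 (1.01), AARSD1 (0.729) and VARS2 (0.108). In 14 places of the order, neighbours had overlapping library ranges. AARS1 went from rank 5 with shNC to rank 12 with shNUF2, MARS1 from 9 to 18, and FARSB from 20 to 29. KARS1 went from rank 10 to 5 and RARS2 from 24 to 15. RARS1 went from rank 8 to 4 at nearly the same level (53.7 and 55.8 FPKM), since SARS1, AARS1, NARS1 and IARS1 fell below it. The median FPKM was 34.0 with shNC and 15.7 with shNUF2 for the genes not ending in 2, and 7.23 and 6.08 for those ending in 2.

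The deposited length enters these levels but not the changes. It was 4.18 times the GENCODE exon bases for GARS1, 2.54 times for LARS1 and 2.28 times for AARS1, so that their FPKM values are low for their read counts. Across the 22 genes not ending in 2, log2 level and log2 fold change had a Pearson r of -0.40 and a Spearman rho of -0.40, and across the 15 ending in 2 an r of 0.33 and a rho of 0.14. These points are genes of the same 6 libraries and are given as a description.

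**Figure D5:**
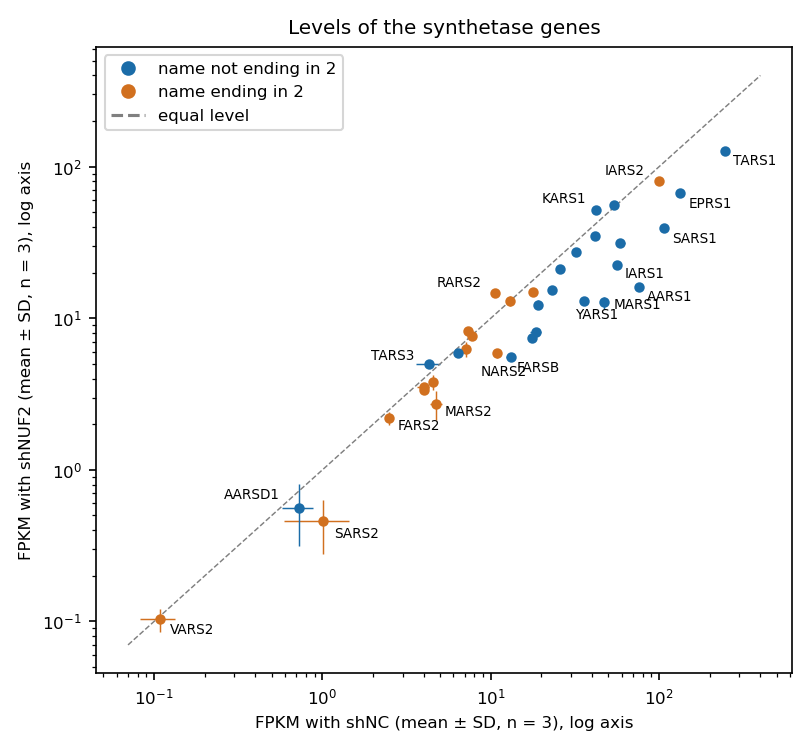
Mean FPKM of 36 synthetase genes with shNC (horizontal) and shNUF2 (vertical), both on log axes, with SD over 3 libraries and a dashed line of equal level. Blue genes (not ending in 2) lie mostly below the line, AARS1 (75.8 and 16.2) farthest among the well-expressed ones, and KARS1 and RARS2 lie above it.

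The other genes that handle charged tRNA were followed in a set of lists with 40 genes in all, of which 38 were tested. Of these 24 fell and 5 rose, against 33.8% lower and 33.9% higher over all genes tested, with a median log2 fold change of -0.38. The tRNA exporter XPOT fell by 1.18 (564 to 249 CPM), the CCA-adding enzyme TRNT1 by 0.60, and the tRNA 3′ processing enzyme ELAC1 by 1.01 at no more than 61 counts in any library. QRSL1, the subunit of the enzyme that makes mitochondrial glutaminyl-tRNA without a synthetase of its own, fell by 1.14 (374, 482 and 516 counts against 156, 200 and 187). Its partner GATC fell by 0.50 and GATB was at 0.13 (adjusted p = 0.26). Among the genes that remove wrong or stalled residues from tRNA, DTD1 (-0.59), DTD2 (-0.96) and PTRHD1 (-1.27) fell, each at low counts, while PTRH2 rose by 0.17 (adjusted p = 0.031) at higher counts. POP1, a subunit of the RNase P that trims tRNA, rose by 0.51. SEPSECS, which makes selenocysteine on its tRNA, was at -0.58.

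Of 9 tested genes for factors that bring charged tRNA to the ribosome or move the ribosome along, 4 fell and 2 rose, which is near the shares over all genes tested (33.8% lower and 33.9% higher). EEF1B2 fell by 0.75 and GFM1, the mitochondrial elongation factor, fell by 0.63, while EEF1A2 rose by 0.83. Of 9 genes that sense uncharged tRNA or act on eIF2, 6 fell and 1 rose. ATF4 mRNA fell by 0.70 (356 to 219 CPM) and IMPACT, an inhibitor of GCN2, by 0.58, while PPP1R15A, which directs dephosphorylation of eIF2, rose by 1.76. ASNS, asparagine synthetase, had 71, 66 and 79 counts with shNC and 3, 1 and 3 with shNUF2.

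Counting limits apply to some members. The libraries were made with a stranded kit, and the strand setting of the counting is not given in the sources used here. Among the members, 12 overlap a gene on the opposite strand, among them MARS1, which overlaps DDIT3, and HARS1 with HARS2. DDIT3 had only 126 to 201 counts per library, with a log2 fold change of 0.00. AARSD1 shares 34.2% of its exon bases with a readthrough gene and VARS2 22.0% with GTF2H4 on the same strand. A total of 10 members, AARS1 and KARS1 among them, have at least 1 pseudogene by name, to which reads may have been lost or gained.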

How the data were processed

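RNA-seq of 6 OVCAR3 libraries, 3 with shNC and 3 with shNUF2, was analysed from 1 table. The authors deposited read counts per gene, not normalized, and FPKM values, which are proportional to count over gene length and library total (largest relative deviation 2.71e-07). The submitters' processing notes name cutadapt, HISAT, HTSeq and GRCh38.p13, and their versions and settings are not given in the sources used here. Libraries were sequenced on an Illumina NovaSeq instrument from a stranded mRNA kit. Groups and replicate numbers came from the labels. Nothing says that libraries of a group came from separate cultures, so p-values measure only the spread between these libraries, which may be technical.

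Genes were kept by filterByExpr, scaled by TMM and compared by the quasi-likelihood test of edgeR 4.0.16 (R 4.3.3) over all 6 libraries with no covariate, with Benjamini-Hochberg adjustment over the 12874 genes tested. A call is an adjusted p under 0.05, and beyond 1 means a log2 fold change beyond 1 with an unadjusted p under 0.05. The study's methods give a threshold of 1 on the fold change without naming a scale, and it was read here as log2. Standard errors were obtained by dividing each log2 fold change by the root of its F statistic. CPM are TMM-scaled. The biological coefficient of variation was 4.93%. Single ratios were compared by two-sided exact permutation tests. On simulated counts of 12771 genes, of which 200 were changed 2-fold, edgeR recovered 200 changed genes and called 7 unchanged ones. The real comparison called 4345 genes lower and 4363 higher, so false calls at that share of changed genes were not tested.

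The members and all lists were chosen with earlier results of these data known. Full statistics were given to members that changed beyond 1, to the largest rise and the 3 nearest to 0 of each name set, and library counts to the 3 largest decreases and the largest rise. Others with full statistics were chosen after their values were seen. Not every member counted in the totals is reported singly. Accessory genes were named when called and beyond 0.58 on the log2 scale. Those outside this (AIMP1, EEF1E1, GATB, GATC, POP1, PTRH2) complete a complex or list and were chosen with their values seen. Alternatives were other scalings, DESeq2 1.42.0, other filters, limma 3.58.1 on log2(FPKM + 1) and log2(FPKM + 0.1), the replicate number as a block and each library left out. Promoters came from RefSeq (GRCh38.p14), and overlaps from GENCODE release 29. Other calculations used Python 3.11.15 with pandas 2.3.3, scipy 1.17.1 and matplotlib 3.10.9.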

Additional observations from a re-analysis of the deposited data

How the results depend on the processing

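Across 15 alternatives to the scaling, filter, test and libraries used, 24 of the 35 members followed singly kept their direction and their side of the threshold throughout, and of 524 member values 488 did so, 12 gained the call, 17 lost it and 7 changed sign. The sign changes were all in genes near 0. CARS2 went from 0.01 to -0.0265 with library totals alone, -0.0160 without a filter, -0.0241 with limma on log2(FPKM + 1) and -0.0269 on log2(FPKM + 0.1), and from -0.0155 to 0.0255 as each library was left out. HARS2 ranged from -0.00233 to 0.0986 as each library was left out. For these the cause was not tested.

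The median log2 fold change of the genes not ending in 2 ranged from -0.81 to -0.70 as each library was left out, the lowest without the first shNUF2 library. That of the genes ending in 2 moved to -0.16 when at least 1 CPM was required in every library, where fewer genes were tested. The number of lower genes ending in 2, 7 as reported, ran from 5 with that filter to 9 with library totals alone. With limma on log2 FPKM, 2 genes ending in 2 were higher in place of 1 with either pseudocount, the added one being YARS2. Requiring a log2 fold change beyond 1 left 8 lower genes not ending in 2, and 1 lower and 0 higher genes ending in 2. With 3 libraries a group, an exact test of 1 value cannot go below 0.10, and depth limits VARS2, SARS2 and AARSD1.

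Same-numbered libraries of the 2 groups had correlations of their deviations of 0.02, 0.00 and -0.03, so the numbers give no pairing. With the replicate block, 16 genes not ending in 2 and 7 ending in 2 were lower and 1 ending in 2 was higher, as without it, with medians of -0.74 and -0.21.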
